A study of Mus musculus with 6 samples.

Results

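Histone genes were examined in V6.5 mouse embryonic stem cells carrying a hairpin RNA that doxycycline (dox) switches on. The set held every probe set, the unit of measurement on this array, whose platform gene symbols were all histone genes, with pseudogenes and the histocompatibility H2 genes left out. This gave 84 of 35556 probe sets, and 78 once probe sets with identical values on all 6 arrays were counted as 1. Of the 78, 45 carried 1 gene symbol and 33 were shared by several. The shared sets repeat one another, since histone copies are near identical in sequence, and the 78 sets held 54 different symbol lists. The symbol H4bc24, listed among H2B genes, is RefSeq's current name for a gene with the synonym Hist1h2br. The H3.3 genes fell largely outside, because the probe sets of H3f3b and all but a dim one of H3f3a also carry a pseudogene or another symbol. The bright sets shared by most H2A genes also name a pseudogene and were left out, so core H2A is covered thinly.

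Expression was measured once per condition on GeneChip Mouse Gene 1.0 ST arrays. The groups were stem cells with hairpin 1 or hairpin 2 against Pcgf6 and dox at 1 µg/ml (n = 2, 1 array per hairpin), the same lines without dox (n = 2), cells with a scrambled hairpin and dox (n = 1) and scrambled cells without dox (n = 1). A line's array with dox and its array without dox are called a pair. All cells were grown on fibroblast feeder cells inactivated with mitomycin C, whose RNA can be part of a sample. The labels give neither the length of dox treatment nor whether the arrays came from separate cultures or the lines from single clones. In bulk samples, fewer cells of a type and less RNA per cell cannot be told apart.

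Histones package DNA. H2A, H2B, H3 and H4 form the nucleosome core and the linker histone H1 binds where DNA enters and leaves it. Most of their genes lie in clusters, are transcribed in S phase and give messenger RNA that ends in a stem-loop in place of a poly(A) tail. Replacement variants such as H2A.Z and H3.3 are made throughout the cell cycle. Germline variants are made in testis or oocyte: TH2A and TH2B, encoded by H2ac1 and H2bc1, form nucleosomes of germ cells, and the H2al genes encode H2A variants of late spermatids. Pcgf6 encodes a subunit of the repressive complex PRC1.6, known for silencing germ-cell genes in embryonic stem cells.

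The stretches before 3 of these genes are shown because the genes differed between arrays in different ways, as described below. RefSeq windows of GRCm38.p6 were matched for 77 of the 83 histone genes named by the probe sets. Histone windows on a chromosome to which no member was assigned were left out, while the total of all windows kept that chromosome. H2ac1 and H2bc1 are divergent neighbours, and their windows, which run from 250 bases before each start, overlapped by 220 bases, so the first sequence holds the whole stretch between both starts. Capitals mark the octamer ATTTGCAT, the CCAAT box (these letters) and the TATA box, searched as the letters TATAAA, each on either strand. The first is chr13:23934187-23934436, the second chr13:23750838-23751087 and the third chr13:23738557-23738806, all plus strand.
H2ac1 and H2bc1: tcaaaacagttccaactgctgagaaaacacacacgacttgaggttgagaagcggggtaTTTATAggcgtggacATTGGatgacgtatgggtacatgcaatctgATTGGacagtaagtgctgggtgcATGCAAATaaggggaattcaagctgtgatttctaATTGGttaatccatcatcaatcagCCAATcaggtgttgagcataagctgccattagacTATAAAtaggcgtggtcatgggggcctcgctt
H2ac4: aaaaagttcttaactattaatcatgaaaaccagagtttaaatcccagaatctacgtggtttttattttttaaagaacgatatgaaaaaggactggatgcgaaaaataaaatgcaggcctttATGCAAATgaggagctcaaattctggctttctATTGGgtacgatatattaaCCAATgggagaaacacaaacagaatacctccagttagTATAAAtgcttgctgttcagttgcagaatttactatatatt
H1f2: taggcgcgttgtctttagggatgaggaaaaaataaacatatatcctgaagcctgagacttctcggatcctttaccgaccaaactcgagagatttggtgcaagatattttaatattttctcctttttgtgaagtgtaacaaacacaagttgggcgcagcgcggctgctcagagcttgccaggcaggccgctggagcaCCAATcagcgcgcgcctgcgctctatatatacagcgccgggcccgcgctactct
The stretch shared by H2ac1 and H2bc1 held 1 octamer, 4 CCAAT boxes and 2 TATA boxes. Of the TATA boxes, 1 lay 32 bases before the H2ac1 start and 1 lay 192 bases before it on the other strand. The H2ac4 stretch held 1 octamer, 2 CCAAT boxes and 1 TATA box, and that of H1f2 held 1 CCAAT box. The CCAAT box was found in 76.6% of the windows of replication-dependent histone genes and in 30.8% of germline windows, against 33.8% of all. Over the windows of replication-dependent histone genes the octamer was found in 19.1% (9 of 47) and the TATA box in 48.9%, against 1.6% and 12.4% of all 32851 windows. The E-box CACGTG was found in 0 of 47 such windows and 0 of 26 germline windows, against 6.02% of all, and the E2F-type letters GCGGGAA in 10.6% and 0%, against 3.82% of all. The motifs were searched on both strands and do not overlap in the sequences shown. These are matches of letters only.

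The question of the main comparison was whether histone transcripts changed when Pcgf6 was knocked down. Pcgf6 measured 9.39 and 9.27 on the log2 scale with dox, against 11.56 and 11.70 without dox in the hairpin lines, a change of -2.30 (SE 0.10, n = 2 against 2, limma adjusted p = 0.0219). The adjusted p was 0.0745 with the hairpin line as a block, 0.253 with a feeder covariate and 0.128 to 0.277 without 1 hairpin array, with changes between -2.38 and -2.20 in those fits. In the scrambled pair Pcgf6 was 11.82 with dox and 11.80 without. No histone probe set passed the threshold of an adjusted p under 0.05: 0 of 78 were called, where 0.112% of all probe sets were (0.104% higher and 0.00844% lower). An unadjusted p under 0.05 was reached by 4 members, or 5.13%, against 7.08% of all probe sets. The 95% interval of the change lay within 1.5-fold either way for 72 of the 78 members and within 2-fold for all 78.

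**Figure D1:**
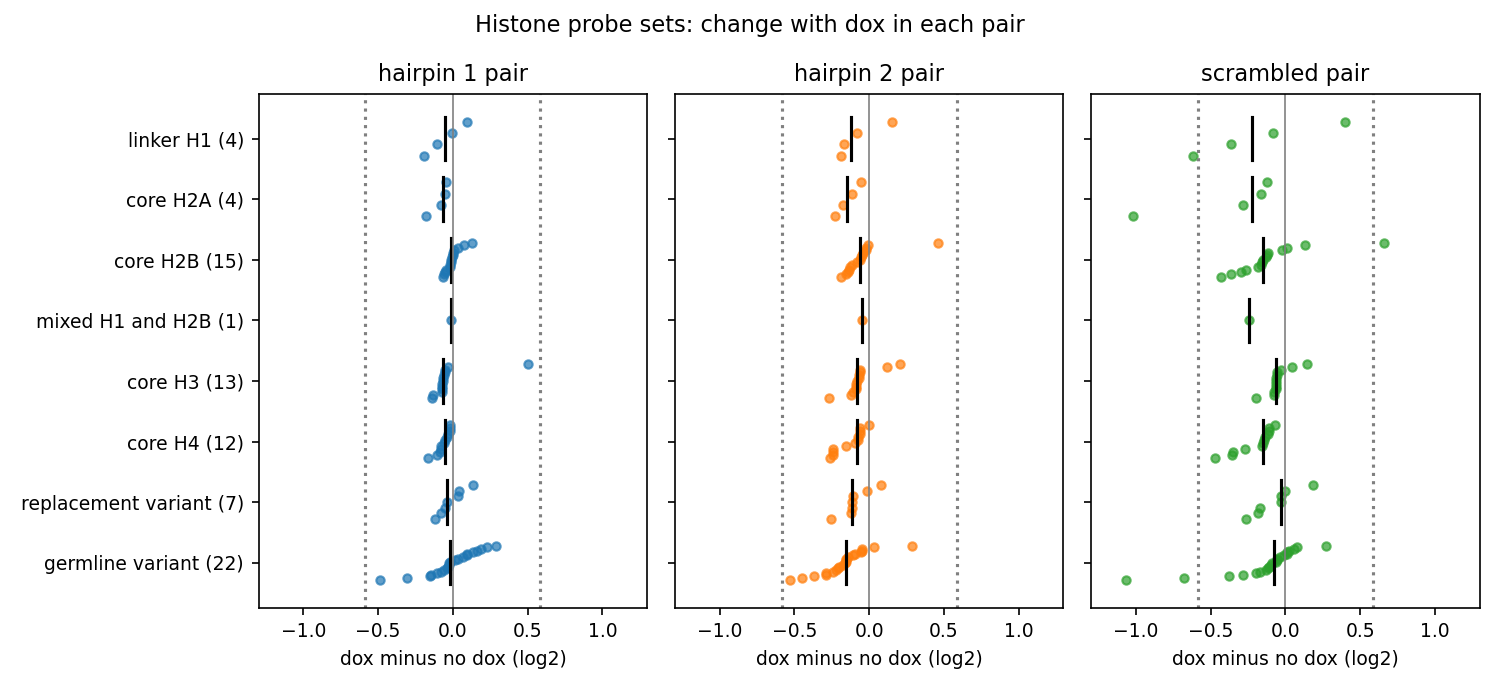
Change with dox (log2, dox minus no dox) of each of the 78 histone probe sets in the hairpin 1, hairpin 2 and scrambled pairs. Rows are histone classes with their number of probe sets, short black lines are class medians and dotted lines mark 1.5-fold. No member lies past 1.5-fold in either hairpin pair, and 5 do in the scrambled pair.

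Across the set the changes were small and mostly below 0. Hairpin 1 gave a median change of -0.04, hairpin 2 of -0.11 and the scrambled hairpin of -0.11, against 0.00, -0.04 and -0.02 over all probe sets. With each array centred on its median, the value for hairpin 2 was -0.0484. Below 0 were 57 members for hairpin 1, where 49.7% of all probe sets were, and 71 for hairpin 2, where 57.5% were, and 65 for the scrambled hairpin, where 53.7% were. Under both hairpins 54 of 78 members were below 0, or 69.2%, against 30.9% of all probe sets, and 52 were also below 0 in the scrambled pair, where 18% of all probe sets were so in all 3 pairs. Above 0 under both hairpins were H2ac1, H2bc4, H1f2 and H2ax, 4 members against 23.7% of all probe sets, and 3 of them also in the scrambled pair, against 12.9%. The hairpin groups did not overlap and were lower with dox for 33 of 78 members, or 42.3%, against 21.6% of all probe sets, and higher with dox for 2, or 2.56%, against 15.6%. With 1 value per symbol list, an alternative chosen after seeing the data, 35 of 54 were below 0 under both hairpins and 33 in all 3 pairs. Fold changes of at least 1.5 were seen for 0 of 78 members higher under hairpin 1 and 0 lower, against 1.94% and 1.63% of all probe sets. Under hairpin 2 the counts were again 0 and 0, against 2.81% and 2.64%. In the scrambled pair 1 member was higher and 4 were lower, against 2.93% and 1.08% of all probe sets.

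The linker histones were read by 4 probe sets of somatic H1 genes. H1f2 (H1.2) measured 10.43 and 10.65 with dox, against 10.33 and 10.50 without dox in the hairpin lines. In scrambled cells it measured 10.39 with dox and 9.99 without, the lowest of the 6 arrays. H1f1 (H1.1) measured 11.40 and 11.71 with dox, against 11.59 and 11.89 without in the hairpin lines, and 11.54 with dox against 12.16 without in scrambled cells. The uninduced scrambled array was thus the highest for H1f1, and the hairpin groups overlapped for both genes. Within the hairpin pairs H1f2 changed by 0.09 and 0.15, and H1f1 by -0.20 and -0.19. H1f3 (H1.3) was dim, between 6.22 and 6.39 on the 6 arrays. H1f5 (H1.5) followed H1f1, with changes of -0.10 and -0.08 under the hairpins and -0.36 in the scrambled pair. The fitted change over both hairpins was 0.12 (SE 0.12, limma adjusted p = 0.879) for H1f2 and -0.19 (SE 0.16, adjusted p = 0.852) for H1f1. Leaving out 1 hairpin array gave 0.0128 (without induced hairpin 2) to 0.23 for H1f2 and -0.35 to -0.0376 (without induced hairpin 1) for H1f1, and the feeder covariate gave 0.0168 and -0.32.

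Core H2A genes outside the variants were read by 4 probe sets, each below 0 in all 3 pairs, where 18% of all probe sets were. H2ac4, known earlier as Hist1h2ab, set the uninduced scrambled array apart. It measured 9.87 and 10.05 with dox, against 9.92 and 10.17 without dox in the hairpin lines, and 10.00 with dox against 11.02 without in scrambled cells. The 5 other arrays lay between 9.87 and 10.17, below the uninduced scrambled array. Its change was -0.08 (SE 0.13, adjusted p = 0.935) over both hairpins. H2ac8 measured 5.56 and 5.79 with dox, against 5.74 and 5.97 without in the hairpin lines, and 5.64 with dox against 5.93 without in scrambled cells. H2ac15 and H2aw differed by -0.16 and -0.06 over both hairpins and by -0.16 and -0.12 in the scrambled pair.

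Of the 15 core H2B probe sets, H2bc4, known earlier as Hist1h2bc, ran against most of the rest. It measured 11.03 and 11.26 with dox, against 10.90 and 10.80 without dox in the hairpin lines, and 10.71 with dox against 10.05 without in scrambled cells. It was higher with dox in all 3 pairs, the hairpin groups did not overlap, and the uninduced scrambled array was the lowest. The change was 0.29 over both hairpins (SE 0.12, limma adjusted p = 0.708), 0.12 with the mean of the feeder markers described below as a covariate, and 0.18 to 0.41 when 1 hairpin array was left out. The H2B gene H2bc3, in contrast, measured 11.48 and 11.62 with dox, against 11.44 and 11.73 without in the hairpin lines, and 11.45 with dox against 11.88 without in scrambled cells. The 6 H2B sets shared by 14 or 15 symbols ranged from 12.96 to 13.55 and differed by -0.06 to 0.00 over both hairpins and by -0.16 to -0.02 in the scrambled pair.

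The 10 shared H3 probe sets, each carrying the same 12 symbols, varied little between arrays. Their values lay between 13.49 and 13.89 on every array. Each set was below 0 in all 3 pairs, where 18% of all probe sets were, with medians of -0.07, -0.08 and -0.06. These sets are bright and read 1 gene family, so they are not 10 separate measurements. H3c15, in the smaller cluster on chromosome 3, measured 6.58 and 6.25 with dox, against 6.08 and 6.52 without in the hairpin lines, and 6.22 with dox against 6.07 without in scrambled cells, so its hairpin arrays moved in opposite directions. All 12 H4 probe sets were below 0 in all 3 pairs, where 18% of all probe sets were, with medians of -0.05, -0.08 and -0.15. Of these H4 sets, 4 carry the same 11 symbols, so they are not 12 separate measurements either. H4c3 measured 9.87 and 10.02 with dox, against 10.04 and 10.26 without in the hairpin lines, and 10.07 with dox against 10.42 without in scrambled cells. Its change of -0.20 over both hairpins (SE 0.12, adjusted p = 0.795) was the lowest among H4 sets and lay between -0.31 and -0.0933 when 1 hairpin array was left out. H4f16, an H4 gene on chromosome 6, outside the large cluster of chromosome 13, measured 11.01 and 11.06 with dox, against 11.09 and 11.22 without in the hairpin lines, and 11.09 with dox against 11.44 without in scrambled cells.

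**Figure D2:**
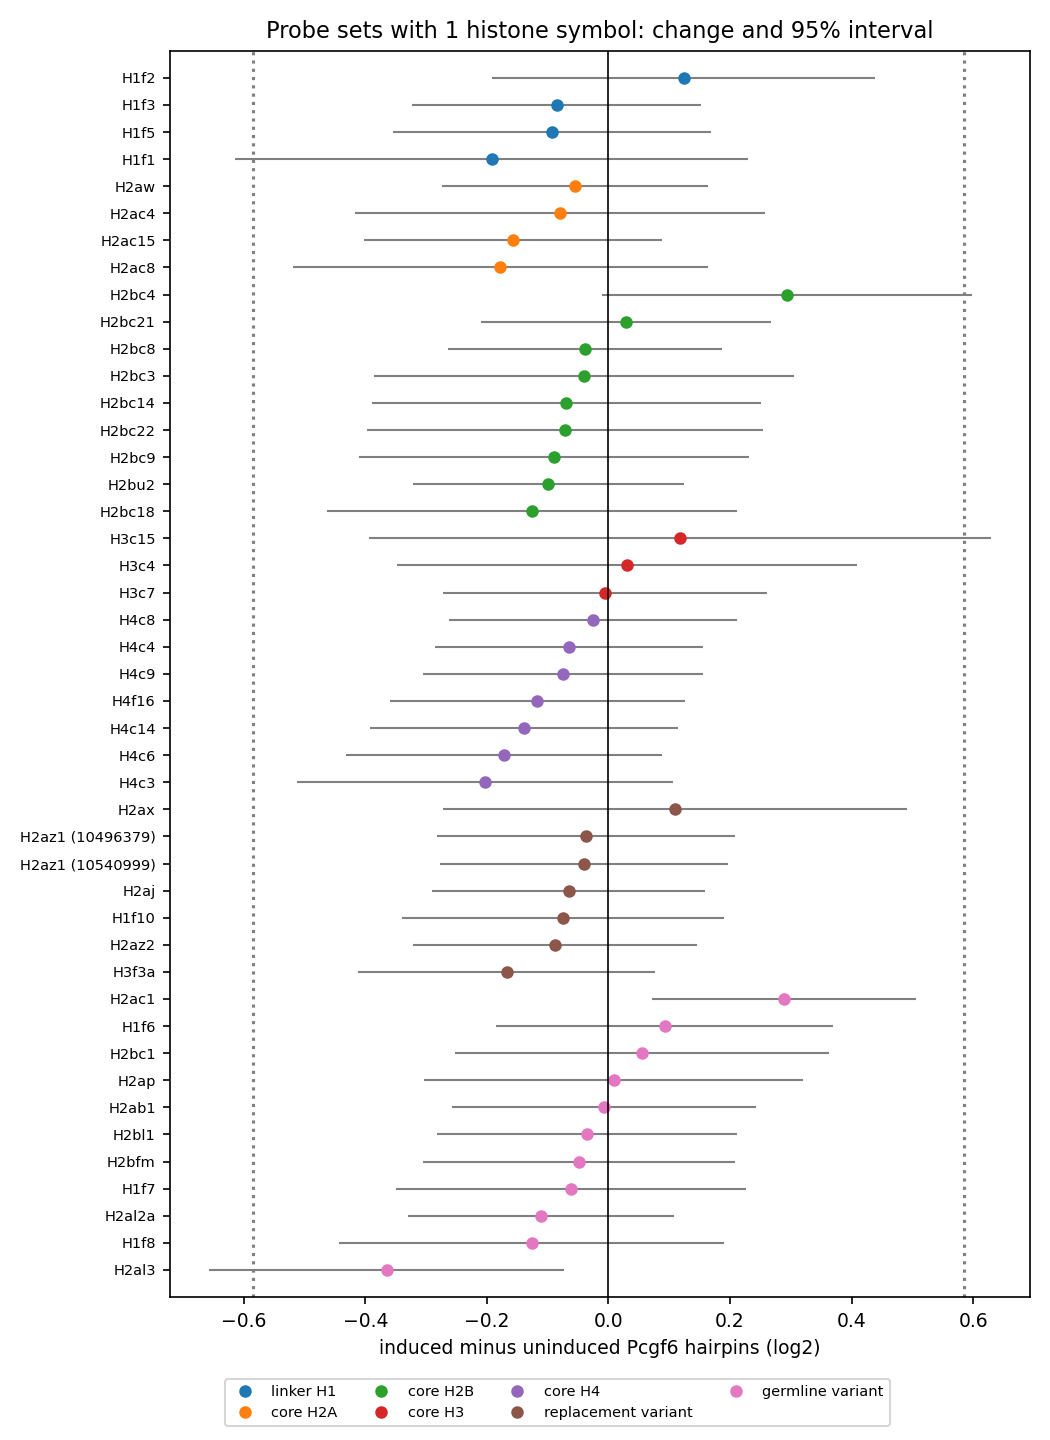
Change between induced and uninduced Pcgf6 hairpins (log2, points) with 95% intervals from limma (bars) for the 45 probe sets that carry 1 histone symbol, coloured by class. Dotted lines mark 1.5-fold. The points lie between -0.36 (H2al3) and 0.29 (H2bc4, H2ac1).

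Replacement variants were read by 7 probe sets, none past 1.5-fold in any pair. H2ax, whose product is phosphorylated at DNA breaks, measured 11.55 and 11.26 with dox, against 11.41 and 11.17 without in the hairpin lines, and 11.44 with dox against 11.26 without in scrambled cells. It was higher with dox in all 3 pairs, and its hairpin groups overlapped, with a change of 0.11 (SE 0.15, adjusted p = 0.915). The 2 sets of H2az1 (H2A.Z.1) differed by 0.03 and 0.04 under hairpin 1, by -0.11 each under hairpin 2 and by -0.03 each in the scrambled pair, over values from 12.67 to 12.81 and from 12.87 to 13.00. H2az2 measured 10.91 and 10.94 with dox, against 10.96 and 11.06 without in the hairpin lines, and 10.97 with dox against 11.23 without in scrambled cells. H2aj measured 8.62 and 8.66 with dox, against 8.73 and 8.68 without in the hairpin lines, and 8.65 with dox against 8.66 without in scrambled cells. The linker variant H1f10 measured 9.99 and 9.83 with dox, against 10.03 and 9.94 without in the hairpin lines, and 10.04 with dox against 10.21 without in scrambled cells, so the groups of both genes lay close together. The dim set of H3f3a lay between 5.78 and 6.03.

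Of the 22 germline sets, those of H2ac1 and H2bc1 lay well above the array medians of 7.02 to 7.08, and the others did not. H2ac1, encoding TH2A, measured 12.77 and 12.80 with dox, against 12.48 and 12.51 without dox in the hairpin lines, and 11.78 with dox against 12.46 without in scrambled cells. With dox it was higher under each hairpin by 0.29, the hairpin groups did not overlap, and the induced scrambled array was the lowest of all 6. H2bc1, encoding TH2B and read from the other side of the shared stretch printed above, measured 10.65 and 10.70 with dox, against 10.49 and 10.75 without in the hairpin lines. In scrambled cells H2bc1 measured 9.82 with dox against 10.89 without. The hairpin groups of H2bc1 overlapped, and the induced scrambled array was again the lowest. The change over both hairpins was 0.29 for H2ac1 (SE 0.08, unadjusted p = 0.0192, limma adjusted p = 0.608) and 0.06 for H2bc1 (SE 0.12, adjusted p = 0.955). The gene H2ac1 thus did not pass, and 35556 probe sets were adjusted for.

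**Figure D3:**
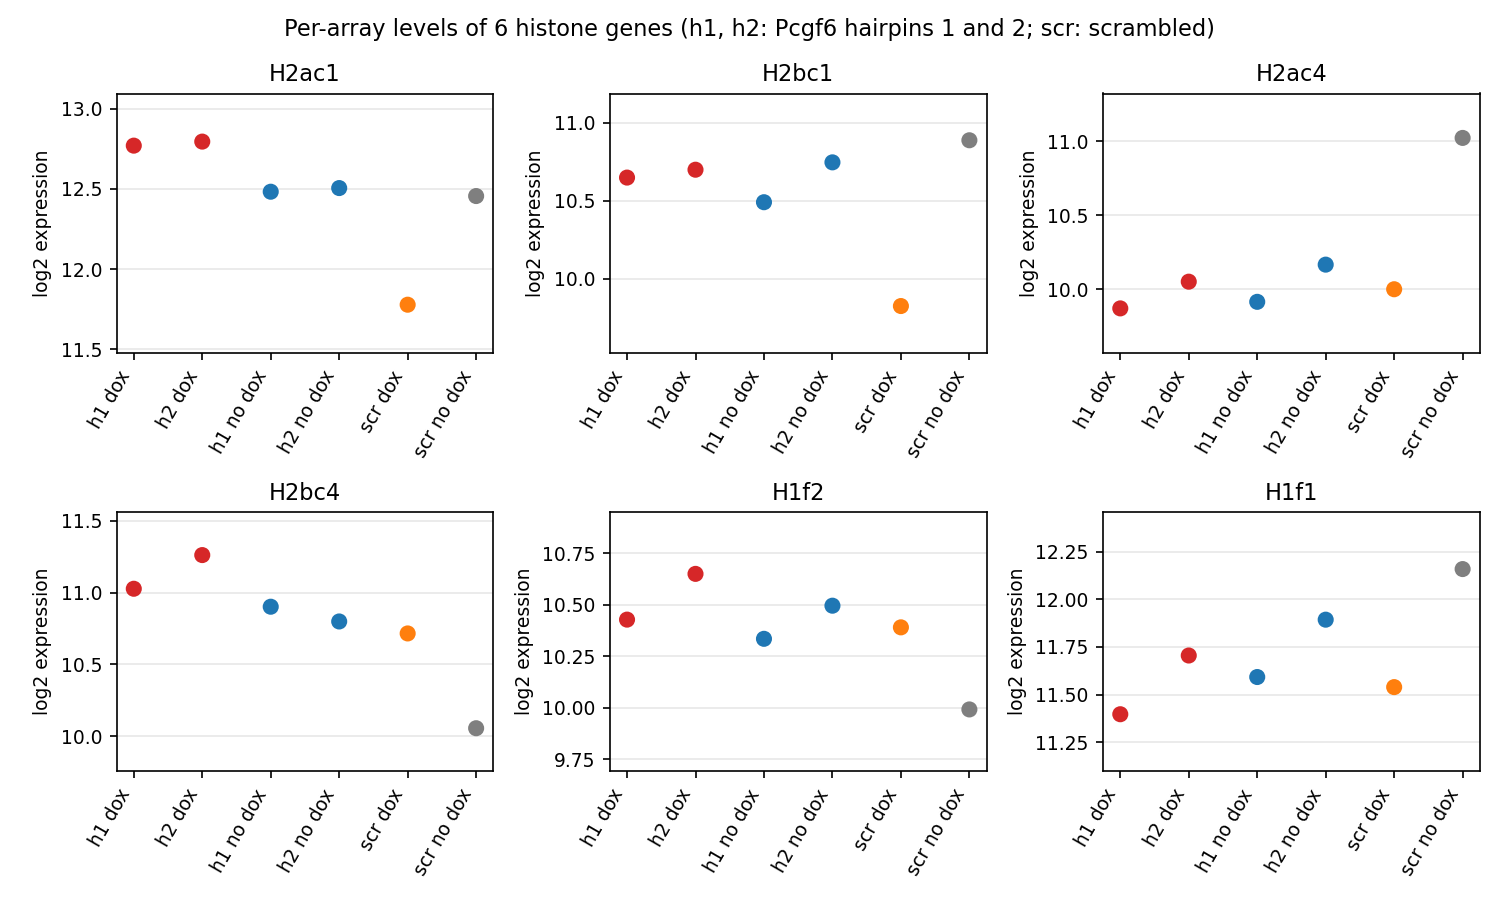
Log2 expression on each array for H2ac1, H2bc1, H2ac4, H2bc4, H1f2 and H1f1. Each point is 1 array, with induced Pcgf6 hairpins in red, uninduced Pcgf6 hairpins in blue, induced scrambled in orange and uninduced scrambled in grey. Vertical axes do not start at 0 and differ between genes. The induced scrambled array is lowest for H2ac1 (11.78) and H2bc1 (9.82), and the uninduced scrambled array stands apart for H2ac4 (11.02), H2bc4 (10.05), H1f2 (9.99) and H1f1 (12.16).

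The other 20 germline sets had values between 5.03 and 7.48, beside array lower quartiles of 5.5 to 5.56 and the medians given above. Their changes over both hairpins ranged from -0.36 to 0.09. H2al3, an X-linked H2A.L gene, measured 5.03 and 5.04 with dox, against 5.52 and 5.28 without in the hairpin lines, and 5.18 with dox against 5.23 without in scrambled cells, a change of -0.36 (SE 0.11, adjusted p = 0.638). The set shared by H2al2b and H2al2c measured 5.42 and 5.56 with dox, against 5.73 and 5.85 without in the hairpin lines, and 5.83 with dox against 5.55 without in scrambled cells. Its hairpin groups did not overlap and its direction in the scrambled pair was the opposite, with a change of -0.30 over both hairpins (SE 0.10, adjusted p = 0.674). The set shared by H2al1h and other X-linked H2al1 genes measured 6.20 and 5.97 with dox, against 6.34 and 6.50 without in the hairpin lines, and 6.17 with dox against 6.19 without in scrambled cells, a change of -0.34 (SE 0.12, adjusted p = 0.689), or -0.16 with the feeder covariate. The 10 H2al1 sets, which share many of their symbols, lay between 5.85 and 6.72 and had medians of -0.02 under hairpin 1 and -0.21 under hairpin 2. H1f6 (the testis linker histone H1t) measured 6.21 and 6.13 with dox, against 5.98 and 6.17 without in the hairpin lines, and 5.80 with dox against 6.18 without in scrambled cells. H1f8, the oocyte linker histone gene, measured 5.40 and 5.63 with dox, against 5.56 and 5.72 without in the hairpin lines, and 5.48 with dox against 5.54 without in scrambled cells. For these linker genes the groups overlapped. H1f7, a spermatid linker histone gene, lay between 7.26 and 7.48 on the 6 arrays, H2ab1, an H2A.B gene, between 6.86 and 7.15, and H2al2a between 7.03 and 7.30. The X-linked H2bfm and H2ap lay between 5.37 and 5.53 and between 5.62 and 5.86, and H2bl1 between 5.37 and 5.53.

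Germ-cell genes of other kinds were measured for comparison, with a list chosen when results of these data were known. Of 16 genes, 10 rose and 0 fell over both hairpins by limma, among them the piRNA factor gene Mael, by 1.98 (SE 0.08, adjusted p = 0.0214), and the RNA helicase gene Ddx4, by 1.72 (SE 0.09, adjusted p = 0.0296). The germline histone sets gave 0 of 22, where 0.112% of all probe sets were called in either direction. At that share a count of 0 in a small group carries little weight. The 10 calls were lost, with 0 of 16 left, with the hairpin line as a block, with the feeder covariate and without any 1 hairpin array, while the list's median change lay between 1.57 and 1.68 in those fits. Median changes of the germ-cell list were 1.65 and 1.61 under the hairpins and -0.29 in the scrambled pair. Those of the germline histone sets were -0.02, -0.16 and -0.08. Of these 22 sets, 20 had values of at most 7.48, and 10 were H2al1 sets that share many symbols. In the scrambled pair the 16 germ-cell genes ranged from -1.16 for the chromosome axis gene Sycp3 to 0.11 for the piRNA factor gene Mov10l1, beside -0.68 for H2ac1 and -1.06 for H2bc1. Of 9 measured genes of spermatid chromatin, among them protamines, transition proteins and chromatin readers, 0 passed, with -0.22 for the protamine gene Prm1 and 0.21 for Brdt, a reader of acetylated histones.

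**Figure D4:**
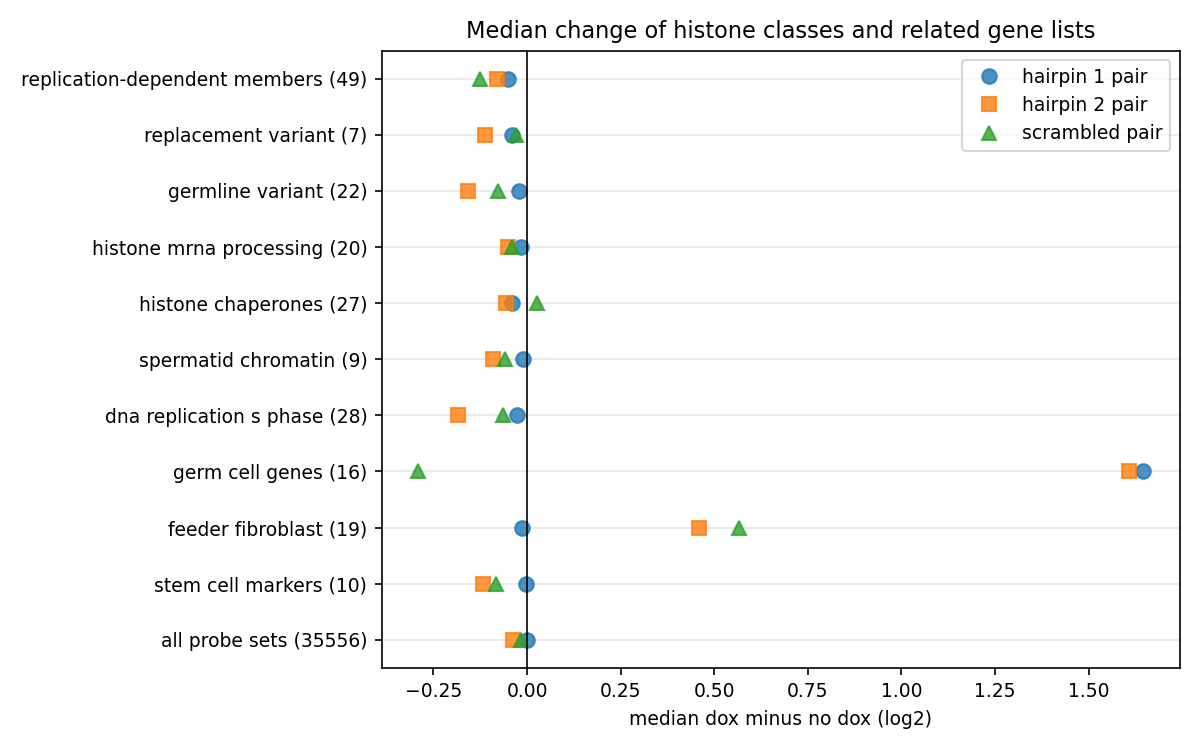
Median change with dox (log2, dox minus no dox) in the hairpin 1 (circles), hairpin 2 (squares) and scrambled (triangles) pairs for 3 groups of histone sets, related gene lists and all probe sets, with the number of probe sets or genes in parentheses. The germ-cell list stands at 1.65 and 1.61 in the hairpin pairs, and the histone groups lie between -0.16 and -0.02 there.

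Genes that make, carry and load histones were tested in the same fit. It called 0.112% of all probe sets over both hairpins, so a count of 0 in a short list carries little weight. Of 20 genes listed for histone mRNA synthesis and processing, 0 passed in either direction, and the median change was -0.02 over both hairpins. Slbp, which binds the stem-loop of histone mRNA, measured 10.71 and 10.77 with dox, against 10.71 and 10.99 without in the hairpin lines, and 10.79 with dox against 11.03 without in scrambled cells. Zfp473, which encodes a factor of histone 3′ end processing, differed by -0.23 (SE 0.09, limma adjusted p = 0.705), the lowest change of the list. The highest was 0.28 for Mbd2 (SE 0.10, limma adjusted p = 0.688). Of 27 histone chaperone genes 0 passed, and the H3-H4 chaperone gene Asf1a differed by -0.26 (SE 0.10, adjusted p = 0.698) and Chaf1b, a subunit gene of chromatin assembly factor 1, by -0.21. Of 28 genes of DNA replication and S phase 0 passed. For hairpin 1, hairpin 2 and the scrambled hairpin the list's medians were -0.03, -0.19 and -0.06, beside -0.05, -0.08 and -0.12 for the 49 replication-dependent histone sets. The licensing gene Cdc6 differed by -0.30 (SE 0.13, adjusted p = 0.739) and the replication gene Gins2 by -0.29 over both hairpins. The share of cells in S phase was not measured.

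The next comparison set the dox response of both Pcgf6 lines against that of scrambled cells. None of the 78 members passed, nor did any of 35556 probe sets (0%), and an unadjusted p under 0.05 was reached by 5 members, or 6.41%, against 5.21% of all probe sets. H2bc1 differed by 1.12 (SE 0.20, unadjusted p = 0.0032, limma adjusted p = 0.587) and H2ac1 by 0.97 (SE 0.14, unadjusted p = 0.00133, adjusted p = 0.484), where a value above 0 means a more positive dox change in the Pcgf6 lines. H2ac4 differed by 0.94 (SE 0.22, adjusted p = 0.754). The others with an unadjusted p under 0.05 were H4c8, at 0.45, and the set of H2al2b and H2al2c, at -0.57. In the scrambled pair H2bc1 and H2ac4 differed by -1.06 and -1.02, beside 0.06 and -0.08 for the hairpin mean. The scrambled pair has 1 array on each side, so these values rest on single arrays. When 19938 genes with a symbol of their own were tested in place of all probe sets, 14 genes passed and no histone gene was among them, with a smallest adjusted p of 0.22.

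Levels before induction were compared between uninduced Pcgf6-hairpin and uninduced scrambled cells. None of 78 members passed, nor did any of all probe sets (0%), and an unadjusted p under 0.05 was reached by 3 members, or 3.85%, against 7.01% of all probe sets. H2ac4 differed by -0.98 (SE 0.16, n = 2 against 1, limma adjusted p = 0.491), H2bc4 by 0.79 (SE 0.14, adjusted p = 0.491) and H1f2 by 0.42 (SE 0.15, adjusted p = 0.681). H1f1, H2bc3 and H4f16 differed by -0.42, -0.29 and -0.28. The uninduced scrambled array was the highest of the 6 for 33 of the 49 replication-dependent sets and for 38 of all 78 members, or 48.7%, against 21.9% of all probe sets. It was the lowest for 5 members, or 6.41%, against 18% of all probe sets.

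Feeder markers differed between the same arrays, and 0 of 19 passed in any of the 3 comparisons. Of all probe sets 0.112% were called in the hairpin comparison and 0% in the others. The mean level of 19 feeder fibroblast genes was 9.92 and 10.26 with dox, against 9.91 and 9.80 without in the hairpin lines, and 9.58 with dox against 9.04 without in scrambled cells. The uninduced scrambled array was thus the lowest in feeder markers, and it was the lowest for H2bc4 and H1f2 and the highest for H2ac4 and H1f1. The 19 markers ranged from 6.01 to 12.57. In human cells the counterparts of H2bc4 and H1f2 are known to give polyadenylated transcripts as well. Whether feeder RNA or polyadenylation bears on the values here was not tested. On the single uninduced scrambled array, feeder level cannot be told apart from line and dox state. A fit with the feeder mean as a covariate left 1 residual degree of freedom. Its slope came only from the hairpin arrays (feeder means 9.80 to 10.26) and was extrapolated to the uninduced scrambled array, at 9.04. In that fit the uninduced difference was 0.20 for H2bc4 and 0.05 for H1f2. For H2ac4 and H1f1 it was -1.20 and -0.88. Of the 10 stem-cell markers 0 passed in any comparison, beside the same shares of all probe sets. Their values lay between 10.30 and 13.10. The uninduced scrambled array was the highest of the 6 for 7 of these 10 markers, against 21.9% of all probe sets. Their mean was 12.09 on that array and 11.84 to 11.96 on the others.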

How the data were processed

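The deposited values are log2 expression per probe set. The submitters' processing notes name RMA and Affymetrix Power Tools. RMA brings the distributions of arrays close together, and the array medians here ran from 7.02 to 7.08. Their versions are not given in the sources used here. All values came from these files and were not normalized again. Values ran from 2.28 to 14.3 and correlations between arrays from 0.991 to 0.996. The number of arrays limits the precision.

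Limma 3.58.1 in R 4.3.3 fitted 1 mean per group over 6 arrays and all 35556 probe sets (2 residual and 2.79 prior degrees of freedom), with two-sided tests, Benjamini-Hochberg adjustment over all probe sets and a threshold of 0.05. Probe sets with several symbols had to stay in, since 33 members are of that kind. Single scrambled arrays were taken to vary like the hairpin groups. The measured spread behind each p-value is that between the hairpin 1 and hairpin 2 arrays within each dox state. It holds differences between the hairpin lines and may also be partly technical. The fit was checked on simulated data.

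Members came from platform symbols, updated through RefSeq of GRCm38.p6. Genes of 7 comparison lists were read by their brightest probe set with 1 symbol. The members named were germline and replacement variants, the up to 6 highest (4 existed) and 6 lowest moving alike under both hairpins, and the 4 highest and lowest in the scrambled pair and between uninduced lines. Most are given by array and the rest by range. H3c15, H1f3, H1f5, H2ac15, H2aw, H4c8 and Sycp3 were named after their values were seen. Members, lists and tests were chosen with earlier results of these data known. The hairpin number pairs arrays of cells with the same hairpin, and deviations of same-numbered arrays correlated at 0.0853 over all probe sets. This value need not hold for single genes.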

Additional observations from a re-analysis of the deposited data

How the results depend on the processing

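No member was called in the 3 comparisons under any alternative run: quantile normalization, median centring, removal of the dimmest 25% or 50% of probe sets, an intensity trend, only probe sets with a symbol, 1 probe set per gene, the feeder covariate, the replicate block, or leaving out each array in turn, where the lone array of a group is assumed to vary like the others. The smallest adjusted p of a member was 0.132, for H2ac1 in the difference from scrambled with only annotated probe sets. The replicate block, with the hairpin line as the block, called 0 members and changed no call of a member, but called 0 of all probe sets where the fit without it called 40. The changes themselves were equal in both fits, at -2.30 for Pcgf6 and 1.98 for Mael, and the adjusted p of both was 0.0745 with the block. The same number, 0, was called without any 1 of the 4 hairpin arrays and with the feeder covariate. With only annotated probe sets 92 were called, and 17 without the dimmest 50%; in the difference from scrambled 38 and 2 were called, where the fit to all probe sets called 0. Adding the block to the uninduced comparison, or leaving out a scrambled array that the comparison needs, allowed no fit.

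The median change under hairpin 2 was -0.0484 with median centring. With a fold threshold of 0.32 on the log2 scale in place of 0.58, the members past it numbered 1 higher and 1 lower for hairpin 1. Hairpin 2 then had 1 higher and 3 lower, and the scrambled pair 2 higher and 11 lower. With 2-fold the scrambled pair had 0 higher and 2 lower. The shares of all probe sets past these other thresholds are not given here, so the counts have no background to be read against. Below 0 under both hairpins stood 60.3% of members with median centring, against 26.3% of all probe sets.

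Some uncalled values near 0 changed sign. Leaving out 1 array, the hairpin change ranged from -0.21 to 0.0459 for H2ac4, from -0.18 to 0.10 for H2bc3, from -0.0365 to 0.26 for H2ax and from -0.0725 to 0.18 for H2bc1. The difference from scrambled ranged from -0.004 to 0.22 for H2ac8 and from -0.22 to 0.0704 for H2ax, and the uninduced difference from -0.19 to 0.0355 for H2ac8 and from -0.0828 to 0.15 for H2ax. The uninduced difference was -0.0016 for H2ax with median centring. Extrapolated with the feeder covariate as described above, it was -9e-04 for H2ac1, -0.0275 for H2al3 and -8e-04 for the set of H2al2b and H2al2c. The cause was not tested.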
